A study of Homo sapiens with 9 samples.

Results

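The interferon response and antigen presentation were followed through 42 genes. They were chosen by name for their place in the pathway, with earlier results of these data known. They cover the interferon receptors, the proteins that carry the signal to the nucleus and MHC class I presentation. The sensors of foreign nucleic acid and the genes that interferon switches on are also covered. Of the 42 genes, 29 were measured among the 12798 features of the count table, 26 had enough reads to be tested, and 3 (STING1, IRF9 and IFIT1) fell below the filter on low counts. The other 13 (HLA-B, HLA-C, HLA-E, HLA-F, TAP1, TAP2, TAPBP, CGAS, IFNGR2, IRF7, IFITM1, IFI27 and IFIT2) were not analysed here. The measurement was 3' mRNA sequencing of HepG2, a human liver cancer line, in which KEAP1 had been targeted with CRISPR-Cas9. KEAP1 is the adaptor that directs the stress-response transcription factor NRF2 to degradation. The libraries fell into 3 groups of 3. The sgCtrl group carried a guide against the AAVS1 locus (sgAAVS168), and the sgKeap1-1 and sgKeap1-2 groups each carried a different guide against KEAP1. All 3 groups were lentivirally transduced, puromycin-selected populations that expressed Cas9. The cells were seeded without any siRNA, and RNA was taken after 48 h. None was treated with interferon according to the labels, and the same sgCtrl libraries served as control for both guides.

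Cells bind type I interferon through IFNAR1 and IFNAR2 and interferon gamma through IFNGR1 and IFNGR2. The signal passes through JAK kinases to STAT proteins. A complex that includes STAT2 and IRF9 binds the interferon-stimulated response element in the promoters of its target genes, and interferon gamma acts through the gamma-activated site. Targets include antiviral effectors and the machinery that loads peptides on MHC class I molecules, which hepatocytes as well as immune cells carry at the surface.

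The promoter sequences are shown for the members whose levels are described most closely below: IFITM3 and OAS1, which rose with both guides, IFIT1 and IFIT5 from the cluster of IFIT genes on chromosome 10, and IFNGR1. Each is the 170 bases before the annotated start of RefSeq on GRCh38.p14, 5′ to 3′ on the strand of the gene. Capitals mark a match to the interferon-stimulated response element, spelled GAAA, any 2 bases and GAAA again, to the gamma-activated site, spelled TTCNNNGAA, or to the core of the antioxidant response element that NRF2 binds, spelled TGACNNNGC, on either strand.
IFITM3 (chr11:320861-321030, minus strand): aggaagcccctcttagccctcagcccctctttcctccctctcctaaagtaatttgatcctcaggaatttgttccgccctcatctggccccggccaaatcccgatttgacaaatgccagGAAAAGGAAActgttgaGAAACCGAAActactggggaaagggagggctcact
OAS1 (chr12:112906792-112906961, plus strand): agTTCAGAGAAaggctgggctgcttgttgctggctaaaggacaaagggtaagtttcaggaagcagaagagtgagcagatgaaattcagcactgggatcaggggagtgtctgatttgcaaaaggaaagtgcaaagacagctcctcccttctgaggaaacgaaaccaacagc
IFIT1 (chr10:89392453-89392622, plus strand): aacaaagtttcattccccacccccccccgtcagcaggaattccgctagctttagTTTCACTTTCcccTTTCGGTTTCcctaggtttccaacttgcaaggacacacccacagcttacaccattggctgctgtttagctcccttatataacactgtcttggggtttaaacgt
IFIT5 (chr10:89414398-89414567, plus strand): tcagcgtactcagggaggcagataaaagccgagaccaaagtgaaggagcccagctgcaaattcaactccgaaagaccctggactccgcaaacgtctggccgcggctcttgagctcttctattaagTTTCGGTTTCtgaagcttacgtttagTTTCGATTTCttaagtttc
IFNGR1 (chr6:137219386-137219555, minus strand): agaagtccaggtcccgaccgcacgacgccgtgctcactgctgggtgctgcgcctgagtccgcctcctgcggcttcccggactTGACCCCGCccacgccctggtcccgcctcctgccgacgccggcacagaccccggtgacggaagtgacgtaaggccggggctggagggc
IFITM3, IFIT1 and IFIT5 each held the interferon-stimulated element letters at 2 places in the printed stretch. In OAS1 the only match in the printed stretch was to the gamma-activated site, and in IFNGR1 to the antioxidant element core, and each is a description of letters, not of a bound site. Near its end the OAS1 stretch also reads gaaacgaaa, where c alone parts the GAAA pair, a spacing that the search did not count.

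Among the members as a whole these letters were common. In windows running from 250 bases before to 50 bases after the start, the interferon-stimulated element letters occurred in 20 of the 33 members with a listed promoter (60.6%) and in 4.38% of all 27305 genes listed. TTCNNNGAA occurred in 9 of the 33 (27.3%, against 9.38% of all genes), and TGACNNNGC in 6 (18.2%, against 16.1%).

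The depth was 3051755 to 4793757 counts per library. Levels are given as CPM, the counts of a feature on a depth common to all libraries after scaling by edgeR's normalization factors, and SE is the standard error of a log2 fold change. Nothing in the labels says that the libraries of a group came from separate cultures, so the p-values measure the spread between these libraries. All 10 hepatocyte markers checked (among them ALB and APOA1) were measured, with a summed level of 34391 to 45186 CPM in sgCtrl, 20626 to 26965 CPM in sgKeap1-1 and 17112 to 20054 CPM in sgKeap1-2, so the summed level was lower in every library with a KEAP1 guide. The markers did not all move that way: with sgKeap1-1, 5 fell (ALB and AFP among them), TTR rose (log2 fold change 0.63, adjusted p = 0.0298, edgeR) and 4 were not called, and with sgKeap1-2, 6 fell, TTR rose (0.65, adjusted p = 0.0131) and 3, APOB among them, were not called. Of the immune markers 1 of 8 was measured (CD14), and of the endothelial and stromal markers 1 of 6 (COL1A1), each at no more than 10.5 CPM in any library. The part of these levels in the results below was not tested. KEAP1 itself (chr19:10596801-10614234 on GRCh37, minus strand) was at 63.3 to 89.2 CPM in sgCtrl, 53.4 to 64.1 CPM in sgKeap1-1 and 73.9 to 85.6 CPM in sgKeap1-2. Neither difference from sgCtrl passed the test (−0.40 on the log2 scale for sgKeap1-1, adjusted p = 0.21, and 0.02 for sgKeap1-2, adjusted p = 0.95, edgeR). Reads from the 3' end of a transcript need not cover a guide's cut, so they do not check the knockout. The library sgKeap1-2 replicate 3 stood apart. In it, 35 tested features with at least 20 counts in both other libraries of its group were below 0.2 of their level in either. Any other library had at most 1 such feature. IFNGR1 and B2M are themselves among the 35. The values of IFNGR1, B2M, IFNAR2, RIGI, TRIM21, TRIM25, IRF3, STAT2 and PARP9 with sgKeap1-2 are given with and without that library.

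IFITM2, IFITM3 and OAS1 rose with both KEAP1 guides, and no other of the 26 tested members passed the test. IFITM2 and IFITM3 are small membrane proteins that hinder the entry of viruses, and OAS1 is an oligoadenylate synthetase that senses double-stranded RNA and activates RNase L. A call is an adjusted p under 0.05 in edgeR's quasi-likelihood test, adjusted over all 11064 features tested. With sgKeap1-1, 3 of the 26 tested members were called (11.5%), all up, where 4.2% of all features tested were called and 2.8% were called up. That count was 1 to 4 over 18 alternatives, and 1, IFITM2, without sgCtrl replicate 1. With sgKeap1-2, 3 of 26 were again called (11.5%) against a background of 10.8%, of which 5.96% were up, so that the members' share lay near the background. The contrasts share their controls and are therefore not independent of each other. The members were also chosen with earlier results of these data known, so their shares do not come from an independent list. Over the 26 members the median log2 fold change came to −0.01 for sgKeap1-1, where all features tested had −0.0006, and to −0.04 for sgKeap1-2, where all features had −0.01.

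IFITM2 (chr11:303655-309397 on GRCh37, plus strand) was measured at 96.7, 101 and 74.5 CPM in the sgCtrl libraries, 164, 250 and 141 CPM in sgKeap1-1 and 180, 210 and 188 CPM in sgKeap1-2. Every library with a KEAP1 guide lay above every sgCtrl library. The log2 fold change was 1.03 with sgKeap1-1 (SE 0.19, 95% interval 0.61 to 1.45, adjusted p = 0.0063 in edgeR) and 1.09 with sgKeap1-2 (SE 0.19, 0.67 to 1.51, adjusted p = 0.0023). IFITM2 was called with each guide whichever of the 9 libraries was left out.

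IFITM3 (chr11:319676-329475 on GRCh37, minus strand), a neighbour of IFITM2, was measured at 267, 199 and 255 CPM in sgCtrl, 383, 537 and 329 CPM in sgKeap1-1 and 372, 475 and 474 CPM in sgKeap1-2. The groups did not overlap with either guide. The log2 fold change was 0.79 with sgKeap1-1 (SE 0.18, 95% interval 0.41 to 1.18, adjusted p = 0.0209 in edgeR) and 0.87 with sgKeap1-2 (SE 0.18, 0.48 to 1.26, adjusted p = 0.0061). The call with sgKeap1-1 was lost on leaving out any 1 sgCtrl library, sgKeap1-1 replicate 1 or sgKeap1-1 replicate 2, with adjusted p-values of 0.0519, 0.0828, 0.0676, 0.0509 and 0.0778. The paralogs share sequence: of the 326 windows of 75 bases in the last 400 bases of the transcript, 52 of IFITM2 (16%) and 67 of IFITM3 (20.6%) also occurred in transcripts of another gene, IFITM1 among them, so reads may be split between them or dropped.

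OAS1 (chr12:113343661-113371024 on GRCh37, plus strand) was measured at 6.89, 7.49 and 3.90 CPM in sgCtrl, 15.3, 18.3 and 9.73 CPM in sgKeap1-1 and 16.0, 12.9 and 15.3 CPM in sgKeap1-2. Again every library with a KEAP1 guide was above every sgCtrl library. The log2 fold change was 1.26 with sgKeap1-1 (SE 0.30, 95% interval 0.61 to 1.91, adjusted p = 0.0285 in edgeR) and 1.28 with sgKeap1-2 (SE 0.30, 0.62 to 1.93, adjusted p = 0.0142). The call with sgKeap1-1 was lost with limma-voom (adjusted p = 0.0573) and on leaving out sgCtrl replicate 1, sgCtrl replicate 3, sgKeap1-1 replicate 1 or sgKeap1-1 replicate 2 (0.0789, 0.144, 0.0972 and 0.118), and the call with sgKeap1-2 was lost without sgCtrl replicate 3 (0.0739). Its neighbour on chromosome 12, OAS3, another oligoadenylate synthetase, had a log2 fold change of −0.15 with sgKeap1-1 (95% interval −0.52 to 0.22) and −0.12 with sgKeap1-2 (−0.49 to 0.25).

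**Figure D1:**
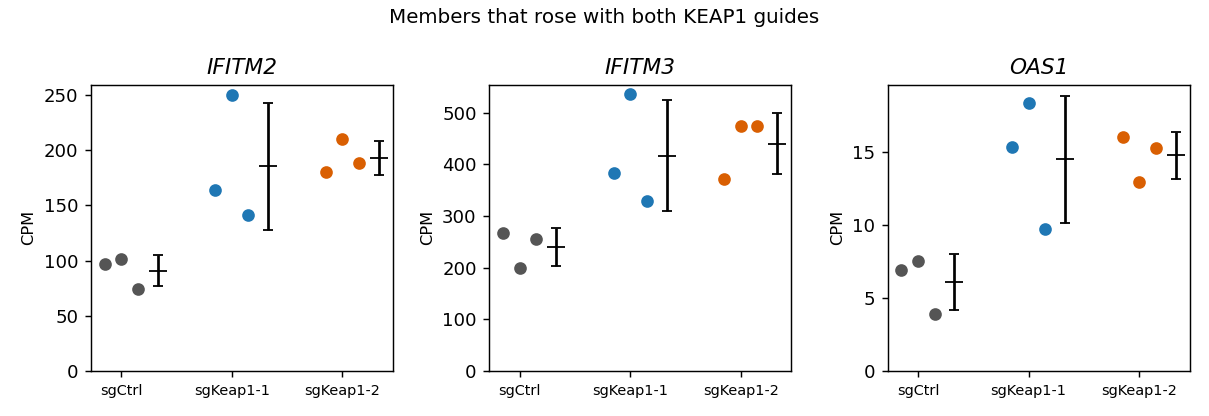
Level of IFITM2, IFITM3 and OAS1 in CPM (vertical axis) in each of the 3 libraries of sgCtrl, sgKeap1-1 and sgKeap1-2 (points), with the mean and standard deviation (black). In each panel all libraries with a KEAP1 guide lie above all sgCtrl libraries, for example at 141 CPM or more against 101 CPM or less for IFITM2.

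**Figure D2:**
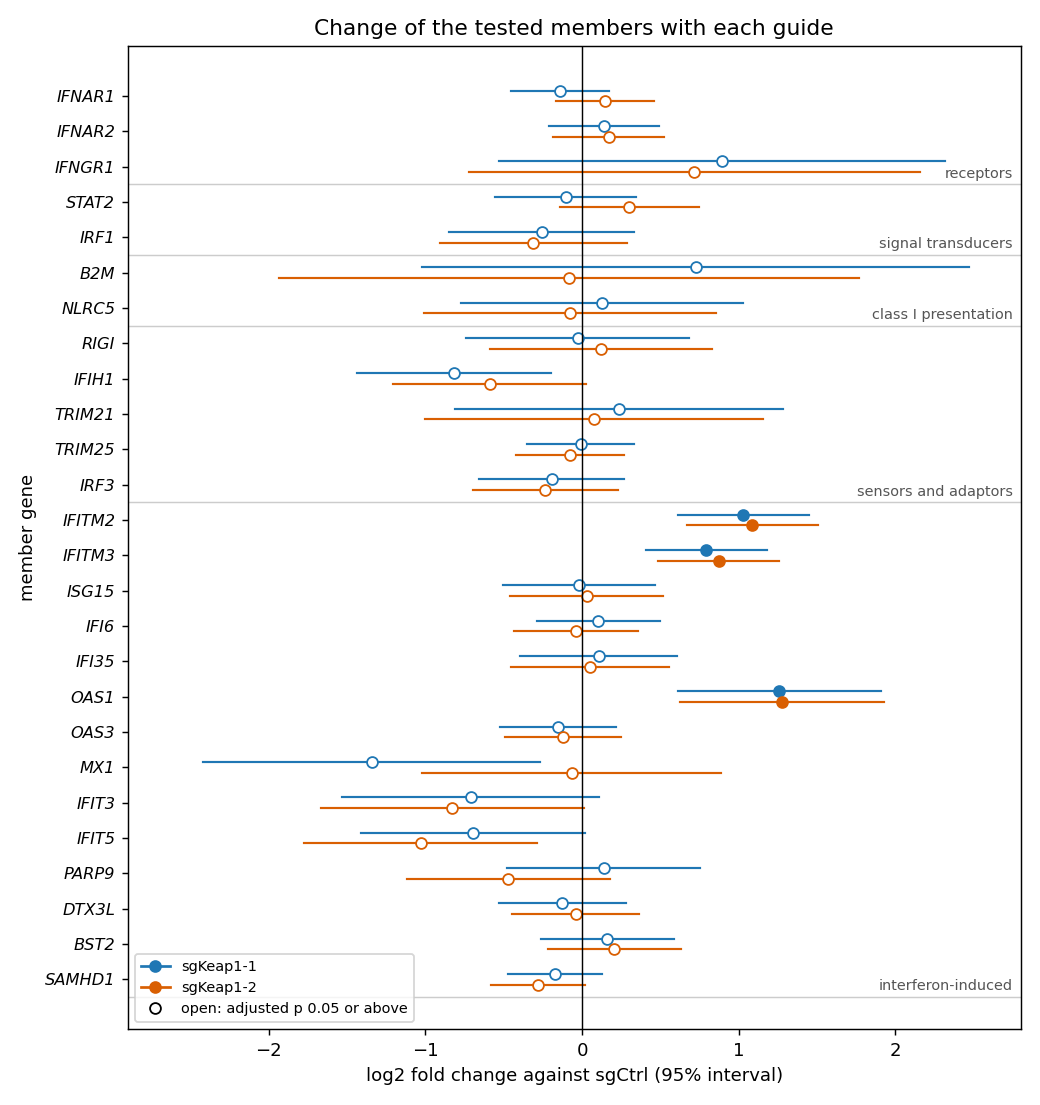
Log2 fold change against sgCtrl (horizontal axis) of the 26 tested members, ordered by role, for sgKeap1-1 (blue) and sgKeap1-2 (orange), with 95% intervals as lines. Filled points mark an adjusted p under 0.05, which IFITM2, IFITM3 and OAS1 reached with both guides and no other member with either.

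None of the 3 receptor chains tested was called in edgeR, limma-voom or DESeq2 with all libraries kept and fitted together, and none had an unadjusted p under 0.05 in edgeR. Of all 11064 features tested, 1660, 2582 and 2481 had such a p-value with sgKeap1-1, with sgKeap1-2 and with the guides pooled. IFNAR1 was measured at 51.7, 46.3 and 39.9 CPM in sgCtrl, 41.4, 39.6 and 44.2 CPM in sgKeap1-1 and 50.8, 49.0 and 52.6 CPM in sgKeap1-2. All sgKeap1-1 libraries lay below all sgKeap1-2 libraries, and both groups overlapped with sgCtrl. Its log2 fold change was −0.14 with sgKeap1-1 (95% interval −0.45 to 0.17) and 0.14 with sgKeap1-2 (−0.17 to 0.46). These values were −0.04 and 0.24 without sgCtrl replicate 1, and −0.23 and 0.05 without sgCtrl replicate 3. IFNAR2 ranged from 33.1 to 48.9 CPM over all libraries, with log2 fold changes of 0.14 and 0.17 and overlapping groups. Without sgKeap1-2 replicate 3, its highest library at 48.9 CPM, the value with sgKeap1-2 was 0.02.

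IFNGR1, the ligand-binding chain of the interferon gamma receptor, was the receptor whose call depended on 1 library. It was measured at 22.3, 31.3 and 20.1 CPM in sgCtrl, 33.9, 58.6 and 43.4 CPM in sgKeap1-1 and 54.5, 58.5 and 8.00 CPM in sgKeap1-2. All sgKeap1-1 libraries and sgKeap1-2 replicates 1 and 2 were above every sgCtrl library, and sgKeap1-2 replicate 3 was below them all. With every library kept, the log2 fold change was 0.89 with sgKeap1-1 (SE 0.62, adjusted p = 0.597 in edgeR) and 0.72 with sgKeap1-2 (SE 0.62, adjusted p = 0.569), and limma-voom gave 0.26 for sgKeap1-2. Without sgKeap1-2 replicate 3 it was 0.90 (adjusted p = 0.0197) and 1.21 (adjusted p = 0.00274), and IFNGR1 passed the test with both guides, where 6.12% and 11.2% of all features tested passed. IFNGR1 is itself among the features that set that library apart, so this pass is not independent of the choice to leave it out. IFNGR1 also passed with sgKeap1-1 when the sgKeap1-2 libraries were left out of the fit (0.89, adjusted p = 0.0393, edgeR). Leaving out sgKeap1-2 replicate 1 or replicate 2 instead moved the sgKeap1-2 value the other way, to 0.45 and 0.33 (adjusted p = 0.785 and 0.845, edgeR).

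Neither tested signal transducer was called or had an unadjusted p under 0.05 in edgeR, and neither was called in limma-voom or DESeq2. STAT2 was at 15.1, 16.3 and 16.2 CPM in sgCtrl, 17.1, 14.8 and 12.4 CPM in sgKeap1-1 and 18.8, 17.1 and 22.8 CPM in sgKeap1-2. Its sgKeap1-2 libraries lay above the sgCtrl libraries without passing the test (log2 fold change 0.30, 95% interval −0.14 to 0.75, adjusted p = 0.426 in edgeR), and the value was 0.17 without sgKeap1-2 replicate 3. IRF1, a transcription factor that interferon gamma induces, had log2 fold changes of −0.26 (−0.85 to 0.33) and −0.31 (−0.91 to 0.28), which came to 0.005 and −0.05 without sgCtrl replicate 3 and to −0.47 and −0.53 without sgCtrl replicate 2. With sgKeap1-1 the IRF1 value was −0.55 without sgKeap1-1 replicate 1. IRF9, below the filter, had 3, 1 and 3 reads in sgCtrl, 10, 1 and 4 in sgKeap1-1 and 11, 6 and 8 in sgKeap1-2, and 65.3% of the 75-base windows at its 3' end occur in another annotated gene model.

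Class I presentation could be read from B2M and NLRC5 alone, and neither was called in edgeR, limma-voom or DESeq2 nor had an unadjusted p under 0.05 in edgeR. B2M, the light chain that all class I molecules share, had 29, 28 and 20 reads in sgCtrl, 33, 71 and 53 in sgKeap1-1 and 34, 46 and 0 in sgKeap1-2. It was the only tested feature with no read in sgKeap1-2 replicate 3 and at least 20 in every other library. The log2 fold change of B2M was 0.73 with sgKeap1-1 (SE 0.77, adjusted p = 0.769 in edgeR) and −0.08 with sgKeap1-2 (SE 0.81, adjusted p = 0.969), and limma-voom gave −1.74 for sgKeap1-2. Without that library the values were 0.73 (adjusted p = 0.197) and 0.53 (adjusted p = 0.372), so the sign with sgKeap1-2 turned. NLRC5, which drives transcription of class I genes, stayed between 2.10 and 4.63 CPM in all libraries, with log2 fold changes of 0.13 (95% interval −0.77 to 1.03) and −0.08 (−1.01 to 0.85). At this depth the upper bound for NLRC5 with sgKeap1-1 allows a rise of 1.03 on the log2 scale.

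None of the 5 tested sensors and adaptors was called in edgeR, limma-voom or DESeq2, and IFIH1, with sgKeap1-1 and with the guides pooled, was the only one of the 5 with an unadjusted p under 0.05 in edgeR. That threshold was passed by 1660 of all 11064 features tested with sgKeap1-1 and by 2481 with the guides pooled. IFIH1, the RNA sensor also known as MDA5, was singled out after its values were seen: it was at 10.9, 9.19 and 7.25 CPM in sgCtrl, 4.63, 4.36 and 6.57 CPM in sgKeap1-1 and 6.77, 5.37 and 6.06 CPM in sgKeap1-2. All its KEAP1-guide libraries were below all sgCtrl libraries. The log2 fold change was −0.82 with sgKeap1-1 (SE 0.29, adjusted p = 0.159 in edgeR) and −0.59 with sgKeap1-2 (SE 0.29, adjusted p = 0.235). RIGI, the other RNA sensor of this family, had log2 fold changes of −0.03 and 0.12, with overlapping groups. The value with sgKeap1-1 ran from −0.15 without sgCtrl replicate 2 to 0.24 without sgCtrl replicate 1. That with sgKeap1-2 ran from −0.14 without sgKeap1-2 replicate 2 to 0.42 without sgKeap1-2 replicate 3. The sign with sgKeap1-1 also turned without sgKeap1-1 replicate 2 (0.09), and that with sgKeap1-2 without sgCtrl replicate 2 (−0.001). Of the RIGI sequence, 93.6% of the 75-base windows at the 3' end are shared with another annotated gene model. TRIM25, a ubiquitin ligase that acts on RIG-I, had log2 fold changes of −0.01 (95% interval −0.35 to 0.33) and −0.08 (−0.42 to 0.27). Its value with sgKeap1-2 was −0.20 without sgKeap1-2 replicate 3. TRIM21, a cytosolic antibody receptor, had 0.24 and 0.08, with both signs turned on leaving out sgCtrl replicate 2 (−0.08 and −0.24), and values of 0.90 and 0.74 without sgCtrl replicate 1. Without sgKeap1-2 replicate 3 the TRIM21 value with sgKeap1-2 was 0.36. The transcription factor IRF3 had −0.19 and −0.23, which on leaving out 1 library ran from −0.42 (without sgKeap1-1 replicate 3) to −0.08 (without sgKeap1-1 replicate 1) and from −0.34 (without sgKeap1-2 replicate 2) to −0.08 (without sgKeap1-2 replicate 3).

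STING1, the adaptor of cytosolic DNA sensing, fell below the filter with 2, 3 and 4 reads in sgCtrl, 8, 9 and 17 in sgKeap1-1 and 8, 12 and 10 in sgKeap1-2. Every library with a KEAP1 guide had more reads than any sgCtrl library. In a fit without the filter, where 4.03% of all features were called with sgKeap1-1 and 10.4% with sgKeap1-2, STING1 had a log2 fold change of 1.62 with sgKeap1-1 (SE 0.58, adjusted p = 0.170 in edgeR) and of 1.54 with sgKeap1-2 (SE 0.59, adjusted p = 0.125).

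Of the 14 tested interferon-induced members, 11 were not called with either guide. ISG15, the ubiquitin-like protein that is among the most responsive interferon targets, was at 17.5, 20.8 and 20.6 CPM in sgCtrl, 25.3, 16.1 and 16.6 CPM in sgKeap1-1 and 22.8, 16.1 and 21.3 CPM in sgKeap1-2. The groups overlapped, with log2 fold changes of −0.02 (95% interval −0.51 to 0.47) and 0.03 (−0.46 to 0.52). IFI6, IFI35, DTX3L, BST2 and SAMHD1 had log2 fold changes between −0.28 and 0.21 over both guides, and between −0.38 and 0.40 on leaving out 1 library. The value of BST2 with sgKeap1-1 was −0.05 without sgKeap1-1 replicate 1 and 0.40 without sgKeap1-1 replicate 2. PARP9, the partner of DTX3L in ADP-ribosylation, had 0.14 with sgKeap1-1 and −0.47 with sgKeap1-2, and its 95% interval for the difference between guides was −1.24 to 0.02. Its lowest sgKeap1-2 library was replicate 3, at 4.85 CPM against 7.56 CPM or more in the other two, and without it the log2 fold change of PARP9 was −0.20 and the difference between guides −0.34. Leaving out sgKeap1-2 replicate 1 moved them the other way, to −0.84 (adjusted p = 0.121, edgeR) and −0.98.

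The IFIT genes, whose products bind foreign RNA and lie side by side on chromosome 10, were described after their values were seen. IFIT5 was at 8.74, 7.83 and 11.4 CPM in sgCtrl, 4.63, 8.28 and 4.21 CPM in sgKeap1-1 and 3.08, 4.63 and 5.81 CPM in sgKeap1-2. Its sgKeap1-2 libraries lay below all sgCtrl libraries. The log2 fold change of IFIT5 was −0.70 with sgKeap1-1 (SE 0.33, adjusted p = 0.350 in edgeR) and −1.03 with sgKeap1-2 (SE 0.35, adjusted p = 0.0765). IFIT3 had log2 fold changes of −0.71 (adjusted p = 0.435) and −0.83 (adjusted p = 0.220), with overlapping groups, and −0.43 and −0.54 without sgCtrl replicate 3. Without sgKeap1-1 replicate 2 the value of IFIT5 with sgKeap1-1 was −1.08 (adjusted p from 0.1595 to 0.7056 over the libraries left out, edgeR).

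IFIT1, below the filter, had 9, 7 and 18 reads in sgCtrl, 7, 2 and 5 in sgKeap1-1 and 1, 0 and 0 in sgKeap1-2. The sgKeap1-2 libraries were the lowest of the 9 and no KEAP1-guide library had a higher CPM than any sgCtrl library. Per read of the group, the level in sgKeap1-2 was 0.0264 times that in sgCtrl, from 1 read against 34 (exact 95% interval 0.000649 to 0.157, counting error only), and in sgKeap1-1 0.339 times, from 14 reads against 34 (0.168 to 0.649). In the fit without the filter, the adjusted p of IFIT1 was 0.00515 with sgKeap1-2, 0.272 with sgKeap1-1 and 0.0454 with the guides pooled (edgeR). Of all features in that fit, 10.4%, 4.03% and 9.44% were called.

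**Figure D3:**
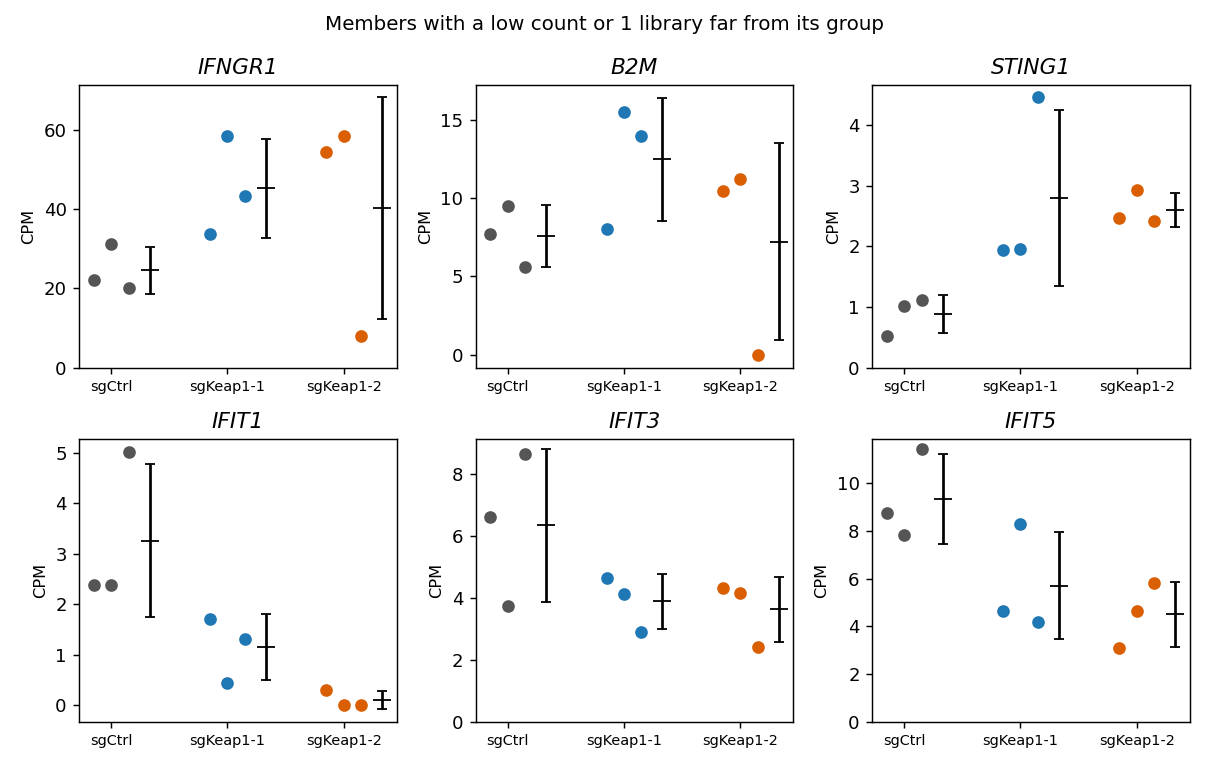
Level in CPM (vertical axis) of IFNGR1, B2M, STING1, IFIT1, IFIT3 and IFIT5 in each library (points), with the mean and standard deviation per group (black). For IFNGR1 and B2M the lowest sgKeap1-2 point is replicate 3, at 8.00 CPM and at no read, and the IFIT1 levels rest on at most 18 reads a library.

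MX1, a GTPase that traps viral particles, was the only 1 of the 26 tested members with an unadjusted p under 0.05 between the guides. Of all 11064 features tested, 562 passed that threshold (edgeR). MX1 was at 3.97, 3.06 and 2.23 CPM in sgCtrl, 1.95, 0.871 and 0.789 CPM in sgKeap1-1 and 2.77, 3.41 and 2.67 CPM in sgKeap1-2. The sgKeap1-1 libraries lay below those of both other groups, with a log2 fold change of −1.34 (SE 0.50, adjusted p = 0.194 in edgeR) against sgCtrl. The level with sgKeap1-2 exceeded that with sgKeap1-1 by 1.28 on the log2 scale (SE 0.50, unadjusted p = 0.0226, adjusted p = 0.915, edgeR). No member was called between the guides, where 0.0181% of all features tested were.

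With both guides taken as one group of 6 libraries, the members called were again IFITM2 (log2 fold change 1.06, adjusted p = 0.000718 in edgeR), IFITM3 (0.83, 0.00255) and OAS1 (1.27, 0.00564), 3 of 26 against a background of 9.64%, with 5.51% called up. Of the 26 tested members, those whose libraries did not overlap between groups numbered 6 with sgKeap1-1 (23.1%, against 21.7% of all features tested) and 7 with sgKeap1-2 (26.9%, against 28%). With both guides the tested ones numbered 4 (15.4%, against 14.8%), namely IFITM2, IFITM3 and OAS1 above and IFIH1 below the sgCtrl libraries. Outside this count, among the members below the filter, STING1 lay above and IFIT1 below the sgCtrl libraries with both guides. These shares of the tested members lay near the background.

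**Figure D4:**
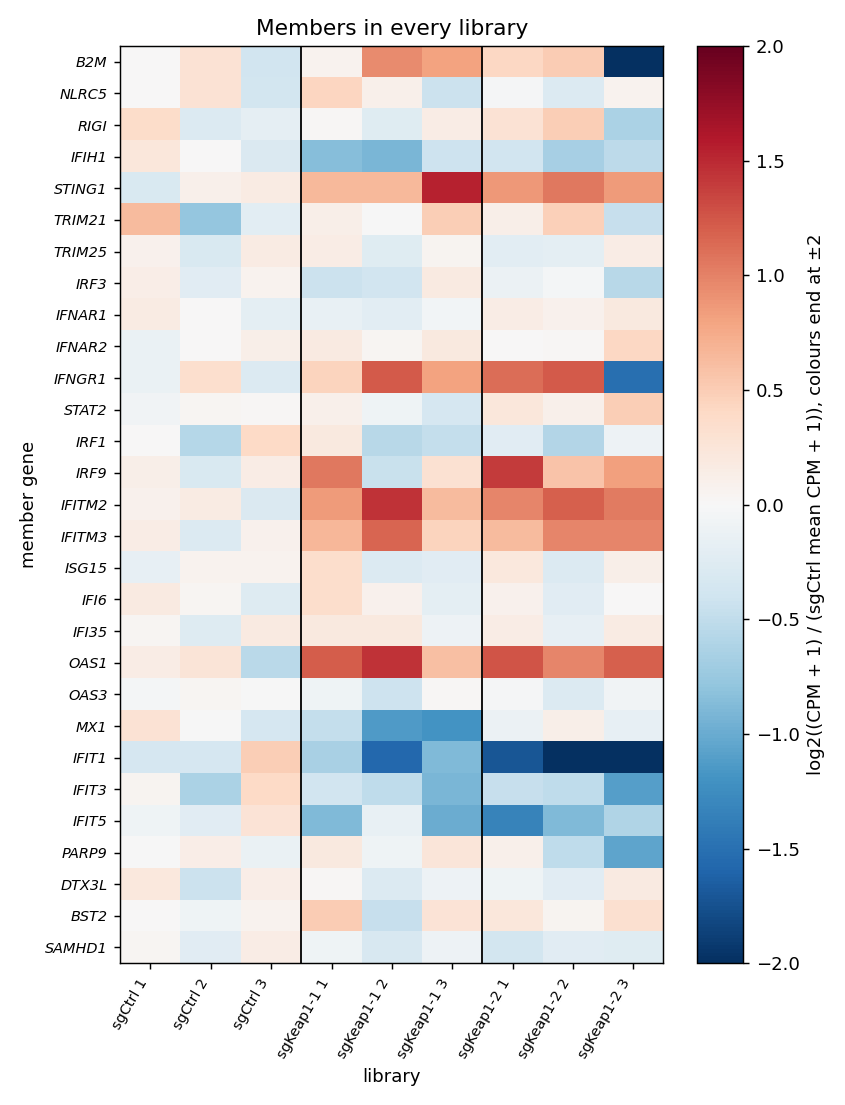
Level of the 29 measured members (rows) in each of the 9 libraries (columns) as log2 of CPM plus 1 over the sgCtrl mean plus 1, red above and blue below the sgCtrl mean, with colours ending at ±2. IFITM2, IFITM3, OAS1 and STING1 are red in all 6 libraries with a KEAP1 guide, IFIT1 and IFIH1 are blue in all 6, and B2M and IFNGR1 are blue in sgKeap1-2 replicate 3.

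The members with the interferon-stimulated element letters in the promoter had log2 fold changes on both sides of 0. Of the 13 tested members with these letters in the window, IFITM3 was called with either guide, and the group had a median log2 fold change of −0.02 (range −1.34 to 0.79) for sgKeap1-1 and −0.07 (range −1.03 to 0.87) for sgKeap1-2. Of the 9 tested members whose window did not hold these letters, OAS1 was called, and the medians were −0.03 and 0.12. The OAS1 window does hold gaaacgaaa, a spacing of the GAAA pair that is not counted here. IFITM2 had no listed promoter. TGACNNNGC was held by 5 tested members, OAS1 and IFNGR1 among them and with IFIT3 at the other end, with log2 fold changes from −0.71 to 1.26 with sgKeap1-1 and −0.83 to 1.28 with sgKeap1-2.

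Among 105 other genes of the pathway, 63 were tested. With sgKeap1-1, GBP1, an interferon-induced guanylate-binding protein, fell (log2 fold change −1.45, adjusted p = 0.0498 in edgeR) and none rose. With sgKeap1-2, 4 were called: GBP1 (−2.05, adjusted p = 0.0051) and the proteasome activator subunit PSME1 (−0.44, 0.0214) fell, and LGALS3BP (0.48, 0.0268) and the tryptophan tRNA synthetase WARS1 (0.54, 0.0493) rose. With the guides pooled 5 were called, with SOCS3, an inhibitor of JAK signalling (2.21, 0.022), and TRIM5 (0.91, 0.0404) rising beside WARS1, and GBP1 and PSME1 falling. These counts were 1.59%, 6.35% and 7.94% of the 63, against the backgrounds of 4.2%, 10.8% and 9.64%.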

How the data were processed

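Total RNA of HepG2 cells was made into QuantSeq 3' libraries and read for 75 bases. The deposited table holds counts, which the authors made with cutadapt 1.16, STAR 2.7.5b and featureCounts 1.6.3 per the labels. The build is given as hg38 in the submitters' processing notes and as hg19 in the study's methods. The annotation and strand setting are not given in the sources used here. Features with no gene number (1052, 1.34% of counts) were left out, and 11740 of the remaining 11746 gene numbers matched a RefSeq symbol. All 9 libraries were fitted in edgeR 4.0.16 (R 4.3.3) with TMM factors, filterByExpr and a robust quasi-likelihood fit with group as the only term, tested on simulated data beforehand. SE is the absolute log2 fold change over the square root of F. Pooled guides were fitted as one group. P-values were Benjamini-Hochberg adjusted over all features tested. The study used limma-voom, run as an alternative with limma 3.58.1, beside DESeq2 1.42.0, other scalings and filters, a replicate block and leaving out each library. Exact intervals for IFIT1 are Clopper-Pearson. Libraries of 1 group differed beyond counting noise (chi-square per degree of freedom 4.63 to 24.1). Members called in any contrast are named with all libraries, with B2M, STAT2, ISG15, STING1 and IFNGR1 as defining genes. The members and gene lists were chosen with earlier results of these data known. Promoters are RefSeq entries on GRCh38.p14 (33 of 42 members matched) and gene positions are from GENCODE on GRCh37.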

Additional observations from a re-analysis of the deposited data

Results flagged for a closer look

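IFNAR1, a chain of the type I interferon receptor, was flagged because its 3 sgKeap1-1 libraries all lay below the sgCtrl mean of 45.9 CPM and its 3 sgKeap1-2 libraries all lay above it. The level with sgKeap1-2 was 0.28 higher than with sgKeap1-1 on the log2 scale (SE 0.15, 95% interval −0.03 to 0.59). The test of that difference did not pass the threshold (adjusted p = 0.979, edgeR), and neither guide's change from sgCtrl did. The share of all features placed this way around their sgCtrl mean was not counted.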

How the results depend on the processing

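The count of members called with sgKeap1-1 was 3, within 1.5 times of that under 14 of 18 alternatives, and 1 to 4 on leaving out a library. It was 1, IFITM2, without sgCtrl replicate 1, sgCtrl replicate 3, sgKeap1-1 replicate 1 or sgKeap1-1 replicate 2. With sgKeap1-2 the count was 2 to 4 over 18 alternatives, with the guides pooled 3 to 4 over 17, and between guides 0 in each of 18. Of 1829 values of single members under an alternative, 11 lost a call, 7 gained one and 0 called values changed sign. IFIT5 passed with the pooled guides without sgKeap1-1 replicate 2 (−1.05, adjusted p = 0.0215, edgeR). B2M with sgKeap1-2 ran from −1.74 (limma-voom) to −0.07 over the alternatives that kept all libraries. The directions of IFITM2, IFITM3, OAS1, IFIT3, IFIT5 and IFIH1 against sgCtrl held in all alternatives run. With rows lacking a gene number kept, an alternative added after seeing the data, the counts were again 3, 3, 0 and 3. Fitting only the groups compared is, for the pooled guides, the fit already given.

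Libraries share replicate numbers across groups, and the descriptions of same-numbered libraries also share a prefix, but the labels do not say what it stands for or that a number marks a shared culture or day. Deviations of same-numbered libraries correlated at −0.01 to 0.52, over 0.1 in 7 of 9 pairs, against a mean of −0.12 for pairs with different numbers. In a fit with this number as a replicate block, the calls among members were 3 with sgKeap1-1, 4 with sgKeap1-2, 0 between guides and 4 pooled, IFIT5 being added (−1.06, adjusted p = 0.0336, with sgKeap1-2 and −0.88, adjusted p = 0.0459, pooled), while 977, 1956, 26 and 1609 of all features were called (8.83%, 17.7%, 0.235% and 14.5%).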
